A study of Mus musculus with 6 samples.

Results

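The genes described here are 40 components of the protein folding and quality control system of the endoplasmic reticulum (ER), measured in mast cells that carried or lacked the microRNA miR-155. They were chosen by name, as chaperones, folding enzymes, degradation and translocation factors and stress sensors of the ER. Earlier results of these data were known when the choice was made. All 40 were on the array among 19938 genes tested. Of these, 37 matched the platform's annotation by the symbol given, and 3 (Ero1l, Ero1lb and Selk) matched through their newer symbols Ero1a, Ero1b and Selenok. Each gene is represented by 1 probe set, the one with the highest mean over all arrays where a gene has several.

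Proteins that enter the secretory pathway fold in the ER with the help of chaperones, lectins that bind their sugars and enzymes that form disulfide bonds, and those that fail are returned to the cytosol and degraded. When unfolded protein accumulates, the sensors IRE1 (Ern1), PERK (Eif2ak3) and ATF6 (Atf6) start the unfolded protein response. IRE1 splices the mRNA of the transcription factor Xbp1, PERK slows translation and favours the factor ATF4, and ATF6 is cut to release a transcription factor. Xbp1 and Atf6 products switch on ER chaperone and degradation genes. Mast cells make large amounts of granule proteases, receptors and, after activation, cytokines, all of which pass through the ER.

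Bone marrow of C57BL/6J mice, either wild type (WT) or knocked out for miR-155 (KO), gave rise to the mast cells over 5 weeks of culture, with IL-3 at 0.5 ng/ml and SCF at 1 ng/ml as growth factors. Anti-DNP IgE (0.2 µg/ml) was bound to the cells of both groups overnight before the antigen DNP-HSA (20 ng/ml) was added for 1 h, so no array shows unstimulated cells and the values compare genotypes after activation. Each genotype had 3 independent cultures, with 1 Affymetrix Mouse Gene 1.0 ST array per culture, 6 in all. Values are log2 RMA intensities, so a difference of 1 is a 2-fold change. The miRNA that the KO cells lack has the following sequence in RefSeq (GRCm38.p6, chr16:84714143-84714165, plus strand), shown with its seed, bases 2 to 8, in capitals.

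mmu-miR-155-5p: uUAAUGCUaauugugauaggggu

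The probe set for Mir155 itself read 2.99 ± 0.15 in WT and 2.86 ± 0.08 in KO (SD, n = 3), among the lowest signals of the arrays, and checks neither the deletion nor the labels. The 12 mast cell markers had means from 4.93 (Mcpt4) to 12.88 (Cpa3), with the receptor chain Fcer1a at 12.06 ± 0.13 in WT and 12.10 ± 0.10 in KO (SD, n = 3). None of the 12 passed the test described below (limma). At an unadjusted p under 0.05 there were 3 of the 12, against 12.7% of all genes and 21.7% of those above the median level. Those 3 were Hdc, the histamine-forming enzyme (0.84, SE 0.28, adjusted p = 0.233), Mcpt4 (0.44, SE 0.13, adjusted p = 0.174) and Mitf (-0.29, SE 0.12, adjusted p = 0.336), given as KO minus WT. KO replicate 1 lay apart from the other arrays on the first principal component.

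The ER stress response element (ERSE), to which ATF6 and XBP1 bind together with NF-Y, is what many of these genes are known to share. It was searched for in their promoters. The genes were chosen by name as parts of this response, so the share with a match is not independent of that choice. The element consists of CCAAT and CCACG with 9 free bases between them. It was sought on both strands from 250 bases before to 50 after the start of transcription. The RefSeq table held promoters of 32 of the 40 genes. An exact match was found in 10 of these 32 genes (31.2%), against 37 of all 27025 genes in the table (0.137%), or 39 of its 32851 promoters (0.119%). The related ERSE-II, ATTGG and CCACG with 1 free base between them, was found in 2 (Herpud1 and Dnajb11), against 0.0444% of all genes. The full UPRE, TGACGTGG, was found in 0 of 32 and in 0.714% of all genes. Its shorter core TGACGTG, which overlaps it, was found in Hspa5 alone of the 32 and in 2.22% of all genes. The amino acid response element, TGATGNAA, was found in Herpud1 alone and in 4.51% of all genes. The promoter stretches below carry the ERSE of 4 genes that lay higher in KO, of Hsp90b1, whose promoter held 2 copies and whose mean differed by 0.06, and of Derl3, 1 of the 2 genes that read below the median gene. Each is printed 5′ to 3′ on the strand of its gene (GRCm38.p6), with both conserved ends of the element in capitals. An element on the opposite strand reads CGTGG before ATTGG.

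Hspa5 (chr2:34772015-34772053, plus strand): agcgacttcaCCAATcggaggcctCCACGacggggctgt
Syvn1 (chr19:6046522-6046560, plus strand): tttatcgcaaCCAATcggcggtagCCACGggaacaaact
Calr (chr8:84847065-84847103, minus strand): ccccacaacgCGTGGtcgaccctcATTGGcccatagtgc
Creld2 (chr15:88819510-88819548, plus strand): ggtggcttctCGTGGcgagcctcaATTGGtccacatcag
Hsp90b1 (chr10:86705523-86705666, minus strand): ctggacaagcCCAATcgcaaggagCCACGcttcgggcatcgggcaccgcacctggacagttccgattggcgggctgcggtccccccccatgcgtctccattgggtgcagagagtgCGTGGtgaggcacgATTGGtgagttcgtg
Derl3 (chr10:75893232-75893270, plus strand): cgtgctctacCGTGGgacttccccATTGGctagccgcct

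The comparison of KO with WT asks whether the absence of miR-155 alters these transcripts in activated mast cells. None of the 40 genes changed by the criterion used (limma, adjusted p under 0.05 over all 19938 genes, two-sided), where 0.823% of all genes and 1.62% of those above the median level did. At an unadjusted p under 0.05 there were 11 of the 40 against 12.7% of all genes, of which 10 were higher in KO, against 6.24%, and 1 lower, against 6.45%. The differences were small, from -0.32 for Sil1 to 0.46 for Sel1l, and 30 of 40 were above 0, against 48.0% of all genes and 48.8% of those above the median level. The median difference was 0.12 over the 40 genes and -0.01 over all genes. The groups did not overlap in 12 genes, against 17.2% of all genes. In 11 genes all KO arrays lay above all WT arrays, which held for 8.18% of all genes, and in 1 gene, Sil1, all lay below, which held for 9.05%. Since 38 of the 40 genes read above the median gene (3.92), the genes above that level are the closer background, and there the groups did not overlap in 24.7%, with KO above in 12.0% and below in 12.7%, and 21.7% had an unadjusted p under 0.05, 10.7% higher in KO and 11.0% lower.

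For 37 of the 40 genes the 95% interval of the difference stayed within 1.5-fold in either direction. The 3 exceptions were Sel1l, Syvn1 and Ssr3, whose upper bounds were 1.61-fold, 1.56-fold and 1.54-fold. Without KO replicate 1, 30 of the 40 differences were above 0 (52.5% of genes above the median level), and both remaining KO arrays lay above all WT arrays in 13 genes (15.9%) and below in 1 (15.2%). The count at an unadjusted p under 0.05 was 8 without it, 7 without WT replicate 1 and 7 without KO replicate 3. It was 9 without WT replicate 2, 13 without KO replicate 2 and 15 without WT replicate 3. The share of all genes at that p was not counted with 1 array left out. In each of these fits 0 of the 40 passed. Of all 19938 genes, from 15 to 167 passed in them, against 164 with all arrays.

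**Figure D1:**
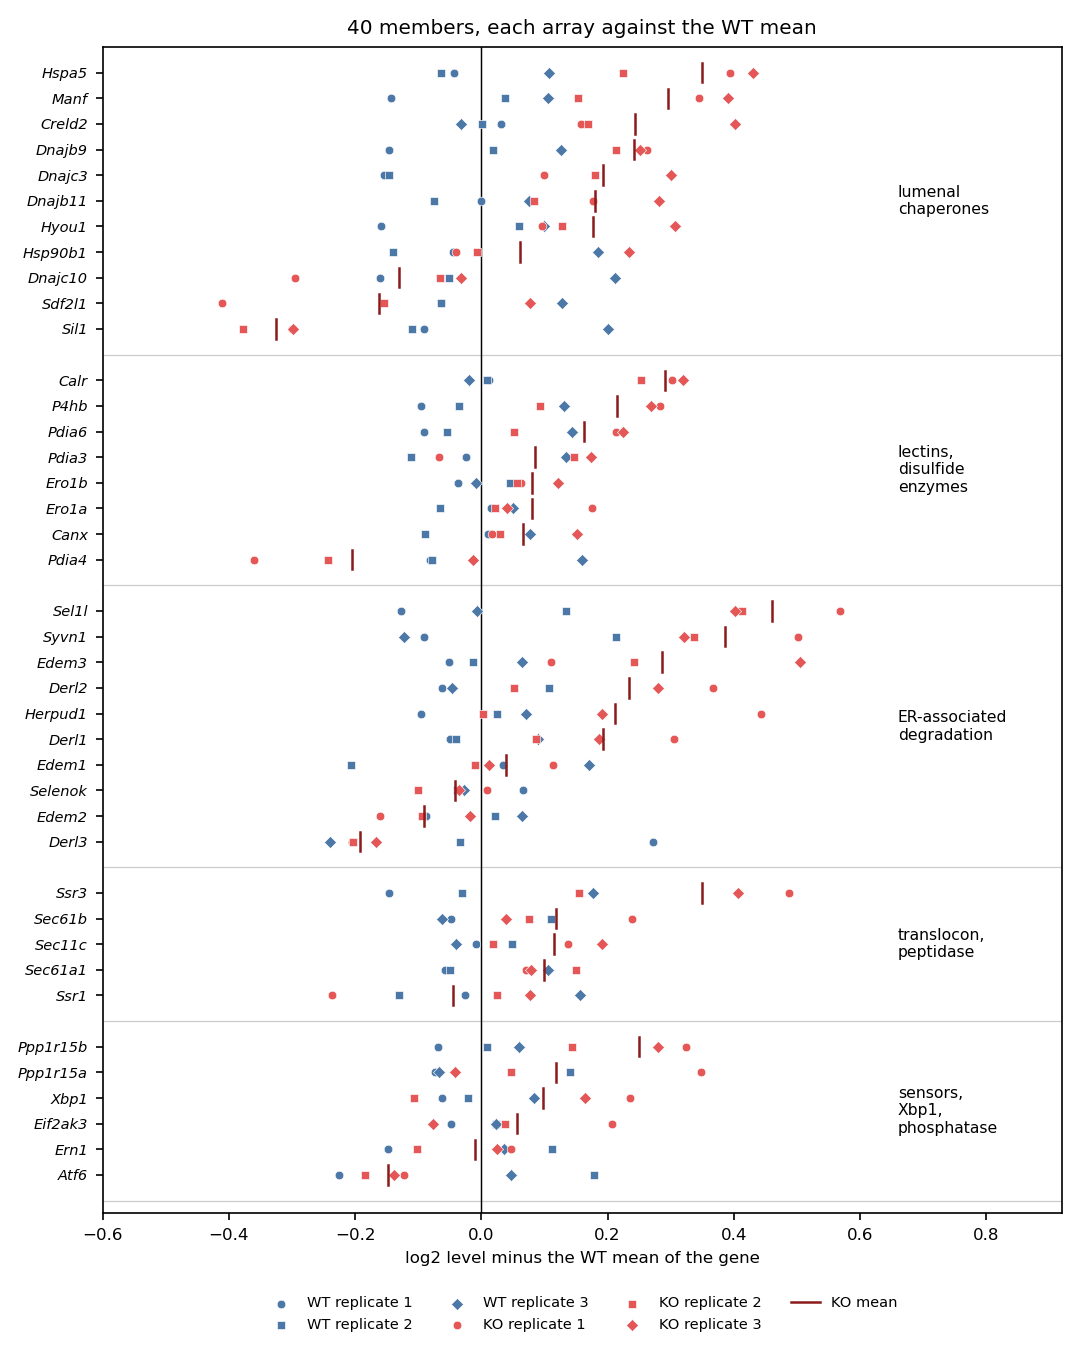
Each row is 1 of the 40 genes, sorted by difference within its role, and each point is 1 array, plotted as its log2 level minus the WT mean of that gene (x axis). Blue points are the 3 WT and red points the 3 KO arrays, with the KO mean as a dark bar. KO points lie wholly to the right of the WT points in 11 genes and wholly to the left in 1, Sil1.

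Among the 11 lumenal chaperones and co-chaperones, Hspa5 had the largest difference. It encodes BiP, the HSP70 of the ER that binds unfolded chains and holds the stress sensors inactive. Hspa5 read 10.82, 10.80 and 10.97 in WT replicates 1, 2 and 3 and 11.26, 11.09 and 11.29 in KO replicates 1, 2 and 3. The groups did not overlap, with WT replicate 3 and KO replicate 2 nearest to each other. The difference was 0.35 (SE 0.09, 95% interval 0.14 to 0.56, adjusted p = 0.141 by limma), or 1.27-fold.

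Manf, a small secreted protein of the stressed ER that binds BiP, stood at 7.52, 7.70 and 7.76 in WT and at 8.004, 7.81 and 8.05 in KO. KO replicate 2 was again the lowest of its group, only just above WT replicate 3. The difference was 0.30 (SE 0.10, adjusted p = 0.256). Creld2, an ER stress-induced protein with EGF-like domains, had tight WT values of 8.13, 8.10 and 8.07, with KO at 8.26, 8.27 and 8.50. KO replicate 3 was the furthest out, and the difference was 0.24 (SE 0.09, adjusted p = 0.311).

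The J-domain co-chaperones hand substrates to BiP and stimulate its ATPase. Dnajb9, which also restrains IRE1, read 6.56, 6.73 and 6.84 in WT and 6.97, 6.92 and 6.96 in KO (difference 0.24, SE 0.09, adjusted p = 0.309). Dnajb11 lay at 8.82, 8.75 and 8.90 in WT and at 9.002, 8.91 and 9.11 in KO (difference 0.18, SE 0.09). In both genes the KO arrays lay above the WT arrays, though for Dnajb11 only just. Dnajc3, an inhibitor of PERK, read 8.44, 8.45 and 8.89 in WT and 8.69, 8.77 and 8.89 in KO. WT replicate 3 lay above KO replicates 1 and 2 and level with KO replicate 3. The difference was 0.19 (SE 0.13, adjusted p = 0.643 by limma). Dnajc10, a disulfide reductase that prepares chains for degradation, differed by -0.13 (SE 0.12), with overlapping groups.

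The nucleotide exchange factors of BiP, which release its bound substrate, differed with opposite signs. Sil1 read 7.80, 7.78 and 8.09 in WT and 7.59, 7.51 and 7.59 in KO, a difference of -0.32 (SE 0.10, 95% interval -0.56 to -0.09, adjusted p = 0.208). It was the only 1 of the 40 genes with all KO arrays below all WT arrays, and WT replicate 3 stood out as the highest. Hyou1, which is also a large chaperone of the HSP70 family, read 8.59, 8.81 and 8.85 in WT and 8.84, 8.88 and 9.06 in KO (difference 0.18, SE 0.10, adjusted p = 0.556), with a slight overlap. Hsp90b1, the HSP90 of the ER, ranged from 10.70 to 11.02 in WT and from 10.80 to 11.07 in KO and differed by 0.06 (SE 0.12, adjusted p = 0.903), and its sign changed without WT replicate 2 or KO replicate 3. Sdf2l1, a partner of Dnajb11, differed by -0.16 (SE 0.13), with KO replicate 1 the lowest at 8.63 and KO replicate 3 at 9.12.

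Of the 8 lectin chaperones and disulfide enzymes, Calr had the most even values. Calreticulin is the soluble lectin chaperone and also the main calcium buffer of the ER. Calr read 10.80, 10.79 and 10.76 in WT and 11.09, 11.04 and 11.10 in KO. Both groups were tight, with SDs of 0.02 and 0.03, and clearly apart. The difference was 0.29 (SE 0.08, 95% interval 0.12 to 0.47, adjusted p = 0.134), or 1.22-fold. Canx, the membrane-bound lectin chaperone with the same sugar specificity, read 10.48, 10.38 and 10.55 in WT and 10.49, 10.50 and 10.62 in KO and differed by 0.07 (SE 0.09, adjusted p = 0.848). The difference between Calr and Canx in their response to genotype was not tested.

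Among the protein disulfide isomerases, P4hb read 10.70, 10.76 and 10.92 in WT and 11.07, 10.88 and 11.06 in KO (difference 0.21, SE 0.10, adjusted p = 0.412), and the groups overlapped through KO replicate 2. Pdia6 differed by 0.16 (SE 0.10) and Pdia3, the isomerase that works with both lectins, by 0.09 (SE 0.10). Pdia4 went the other way, at 9.30, 9.30 and 9.54 in WT and 9.02, 9.14 and 9.37 in KO (difference -0.21, SE 0.12, adjusted p = 0.537), again with overlap. A second, dim probe set of Pdia4 (mean 3.97) differed by -0.27. Of the oxidases that recharge these enzymes, Ero1a stood at 12.07 ± 0.06 in WT and 12.15 ± 0.08 in KO (difference 0.08, SE 0.09). Ero1b stood at 4.86 ± 0.04 and 4.94 ± 0.04 (difference 0.08, SE 0.08, adjusted p = 0.771), with the KO arrays narrowly above the WT arrays.

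The largest difference of the 40 genes belonged to ER-associated degradation. Sel1l and Syvn1, which encode the core pair of its main ubiquitin ligase, had the largest differences among its 10 genes. Neither passed, and the ligase complex was not tested as a unit. Sel1l, the membrane adaptor that stabilises the ligase and recruits substrates, read 8.34, 8.602 and 8.46 in WT and 9.04, 8.88 and 8.87 in KO. Every KO array lay above every WT array. The difference was 0.46 (SE 0.10, 95% interval 0.24 to 0.68, adjusted p = 0.0782), or 1.38-fold. It did not pass in any of the 14 alternative fits, in which its adjusted p ran from 0.0545 to 0.227 and its difference from 0.40 to 0.53.

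Syvn1, which encodes the ligase HRD1 itself, read 5.92, 6.22 and 5.89 in WT and 6.51, 6.35 and 6.33 in KO. WT replicate 2 came close to the KO arrays without reaching them, and the difference was 0.39 (SE 0.11, adjusted p = 0.170), or 1.31-fold. Edem3, a mannosidase that marks glycoproteins for disposal, read 6.57, 6.61 and 6.69 in WT and 6.73, 6.87 and 7.13 in KO (difference 0.29, SE 0.11, adjusted p = 0.319), with KO replicate 3 furthest out. Its relatives Edem1 and Edem2 differed by 0.04 (SE 0.11) and -0.09 (SE 0.09), both with overlapping groups, and the sign for Edem1 changed without WT replicate 2.

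Derl1 and Derl2, membrane proteins of the channel through which substrates leave the ER, differed by 0.19 (SE 0.09) and 0.23 (SE 0.11), and Herpud1, a stress-induced organiser of the ligase complex, by 0.21 (SE 0.12). In all 3 genes KO replicate 1 was the highest array (9.16, 7.93 and 9.53) and KO replicate 2 lay within the WT values (8.94, 7.61 and 9.09). Derl3 and Selenok were the only members below the median gene. Derl3, a derlin of professional secretory cells, read 4.22, 3.92 and 3.71 in WT and 3.74, 3.75 and 3.78 in KO. The single-gene probe set of Selenok, a selenoprotein of the ER membrane, ranged from 2.22 to 2.39, which is near the bottom of the arrays, and a further probe set shared with another gene was not used.

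In the 5 genes of the translocon and signal peptidase, the groups overlapped in each. Ssr3, a subunit of the translocon-associated TRAP complex, read 9.66, 9.77 and 9.98 in WT and 10.29, 9.96 and 10.21 in KO (difference 0.35, SE 0.12, adjusted p = 0.250), or 1.27-fold. KO replicate 2 fell just short of WT replicate 3. Another TRAP subunit, Ssr1, differed by -0.05 (SE 0.11), and this turned to 0.05 without KO replicate 1. Sec61a1 and Sec61b, which form the protein-conducting channel, differed by 0.10 (SE 0.09) and 0.12 (SE 0.09). Sec11c, a catalytic subunit of the signal peptidase, differed by 0.12 (SE 0.08).

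Neither the 3 sensors nor Xbp1 had groups that separated. Ern1 (IRE1) read 5.73, 5.99 and 5.91 in WT and 5.93, 5.78 and 5.90 in KO, a difference of -0.01 (SE 0.10, 95% interval -0.23 to 0.21, adjusted p = 0.986) whose sign changed with the scaling of the arrays. Eif2ak3 (PERK) differed by 0.06 (SE 0.09, interval -0.16 to 0.27), or by -0.02 without KO replicate 1, and Atf6 by -0.15 (SE 0.11, interval -0.40 to 0.10). Xbp1 read 9.57, 9.61 and 9.72 in WT and 9.87, 9.53 and 9.80 in KO, so that the KO arrays held both the lowest and the highest value. Its difference was 0.10 (SE 0.11, interval -0.15 to 0.34, adjusted p = 0.811). These levels do not separate spliced from unspliced Xbp1 mRNA, and the activity of the sensors was not measured.

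The 2 phosphatase subunits that undo the translational block set by PERK were both measured. The constitutive subunit Ppp1r15b read 6.78, 6.86 and 6.91 in WT and 7.17, 6.99 and 7.13 in KO, with all KO arrays above WT (difference 0.25, SE 0.09, adjusted p = 0.261). Its second, dimmer probe set (mean 4.66) differed by 0.45. The stress-induced subunit Ppp1r15a read 6.73, 6.94 and 6.74 in WT and 7.15, 6.85 and 6.76 in KO (difference 0.12, SE 0.12, adjusted p = 0.787), with only KO replicate 1 above the WT range.

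The values by array are given as a description, with no test of roles or cultures against each other. Among the 11 lumenal chaperones WT replicate 3 was the highest WT array in 10 and KO replicate 3 the highest KO array in 10. These arrays were the highest of their group in 36.5% and 35.0% of all genes and in 48.9% and 43.8% of those above the median level. KO replicate 2 was the highest KO array in 1 of the 40 genes, against 28.6% of all genes and 27.0% of those above the median level. As a mean over these 11 genes of the level minus the WT mean, the WT arrays gave -0.09, -0.05 and 0.14 and the KO arrays 0.04, 0.05 and 0.21. WT replicate 3 was thus above KO replicates 1 and 2. For the 10 degradation genes the WT arrays were at -0.019, 0.017 and 0.002 and the KO arrays at 0.205, 0.073 and 0.168, with no overlap by these means but with overlap by the medians, at 0.029 for WT replicate 3 and 0.027 for KO replicate 2. The 5 translocon and peptidase genes also separated by their means, at -0.057, -0.01 and 0.068 in WT and 0.14, 0.085 and 0.159 in KO. Their medians overlapped, at 0.106 for WT replicate 3 and at 0.076 and 0.078 for KO replicates 2 and 3. By the means of the 27 other degradation genes described further on, KO replicate 2 (0.027) was below WT replicate 3 (0.067). For the 6 sensor and phosphatase genes KO replicate 1 was the highest KO array in 6 of 6 (36.5% of all genes, 29.2% of those above the median level), at a mean of 0.173, while KO replicates 2 and 3 were at -0.027 and 0.035, inside the WT range of -0.10 to 0.07. The genes above the median level had means between -0.04 and 0.05 on all arrays, with both replicates numbered 3 the highest at 0.05. In 25 of the 40 genes the range of the WT arrays exceeded the size of the genotype difference, against 78.7% of all genes and 71.5% of those above the median level.

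**Figure D2:**
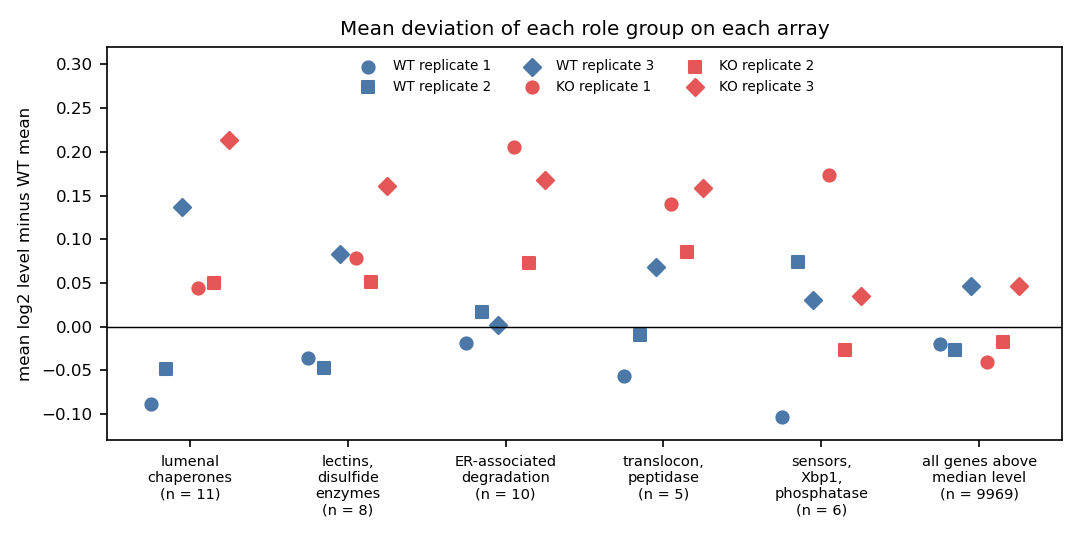
Mean over the genes of each role of the log2 level minus the WT mean (y axis), for each of the 3 WT (blue) and 3 KO (red) arrays; the rightmost column shows all 9969 genes above the median level. WT replicate 3, at 0.14, lies above KO replicates 1 and 2 for the lumenal chaperones. All KO arrays lie above all WT arrays for ER-associated degradation and for the translocon and peptidase genes. By medians over the genes, which are not plotted, the groups overlap in both of these roles.

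The genes with an ERSE match are set beside the others as a description. The 10 genes with a match had a median difference of 0.18, and 9 of them had a difference above 0, with all KO arrays above WT in 5 (Hspa5, Syvn1, Calr, Creld2 and Ero1b). The 22 genes whose promoter held no match had a median of 0.09, with 15 above 0 and KO arrays wholly above WT in 4. The 8 genes with no promoter in the table had a median of 0.15, with 6 above 0 and KO arrays wholly above in 2. The difference was above 0 in 48.0% of all genes and 48.8% of those above the median level. KO arrays lay wholly above in 8.18% of all genes and 12.0% of those above the median level. Without KO replicate 1 the counts wholly above were 5 of 10, 5 of 22 and 3 of 8. The shares were then 11.7% of all genes and 15.9% of those above the median level. Values within the matched group spread from -0.19 for Derl3 to 0.39 for Syvn1, and Sel1l, with the largest difference of all, had no match in this window. Whether the groups with and without a match differ was not tested.

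**Figure D3:**
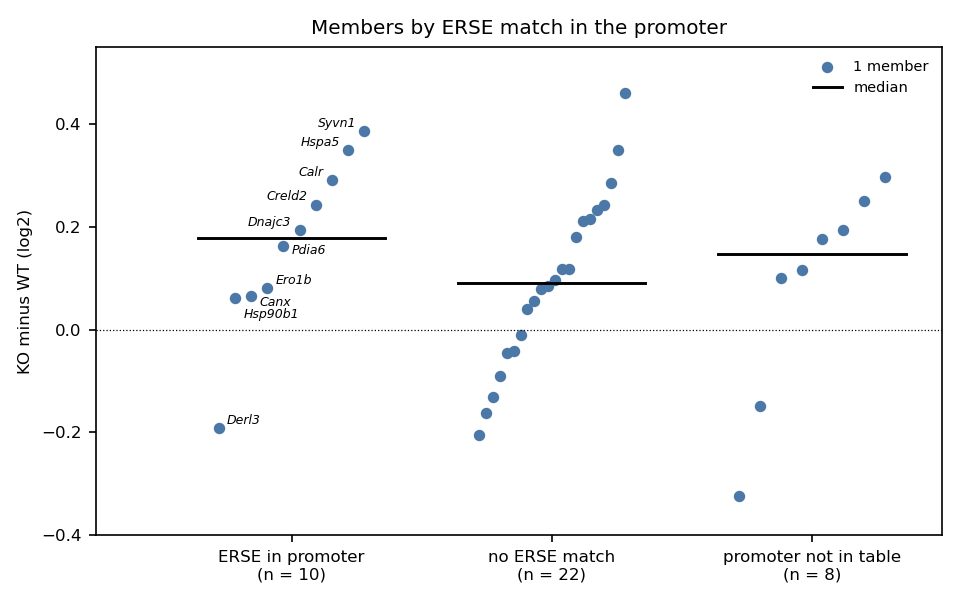
KO minus WT difference (log2, y axis) of each gene, by whether its promoter from 250 bases before to 50 after the start held an exact ERSE; each point is 1 gene and the bar is the median. The 10 genes with a match range from -0.19 (Derl3) to 0.39 (Syvn1), and the 22 genes without one from -0.21 (Pdia4) to 0.46 (Sel1l).

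In the rest of the pathway, 144 further genes in 7 lists were read from the same fit. Of these, 4 rose (2.78%, against 0.507% of all genes and 0.993% of those above the median level), 1 fell (against 0.316% and 0.622%) and the other 139 stayed short of the threshold. The lists were chosen with earlier results of these data known, so these shares are no independent evidence. The 4 that rose belong to different lists. They were Stim2, an ER calcium sensor that opens plasma membrane calcium channels (0.85, SE 0.12, adjusted p = 0.0190), Sec23a, a coat protein of vesicles leaving the ER (0.69, SE 0.11, adjusted p = 0.0355), Asns, asparagine synthetase and a target of ATF4 (0.63, SE 0.09, adjusted p = 0.0269), and Dnajc1, a J-domain protein of the ER membrane (0.55, SE 0.08, adjusted p = 0.0281). The gene that fell was Ddit4, whose product restrains mTOR under stress (-0.68, SE 0.08, adjusted p = 0.0126). Dnajc1 was even within each group, at 6.98, 6.96 and 7.001 in WT and 7.57, 7.43 and 7.58 in KO. Sec23a read 6.69, 6.73 and 6.85 in WT and 7.49, 7.23 and 7.60 in KO. None of the 5 passed without WT replicate 1, 2 or 3. In those fits 15, 43 and 27 of all 19938 genes passed, against 164 with all arrays. Without KO replicate 1 Stim2 and Ddit4 passed, without KO replicate 3 only Ddit4 did, and all 5 passed without KO replicate 2. Of all genes 103 passed without KO replicate 1, 74 without KO replicate 3 and 167 without KO replicate 2.

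Of 27 other degradation genes 0 passed (limma), with a median of 0.12 and differences in both directions. At an unadjusted p under 0.05 there were 12 of the 27, against 12.7% of all genes and 21.7% of those above the median level. Nploc4, a cofactor of the segregase VCP that pulls substrates out of the membrane, differed by 0.40 (SE 0.09, adjusted p = 0.0861), Selenos, which anchors VCP at the ER, by 0.45 (SE 0.12, adjusted p = 0.138), and Vcp itself by 0.27 (SE 0.09, adjusted p = 0.214). The ligase gene Rnf5 differed by -0.44 (SE 0.13, adjusted p = 0.167). All 4 had groups that did not overlap, but they were named for their low p. Over the list the groups did not overlap in 11 of 27 genes, against 17.2% of all genes and 24.7% of those above the median level. Of 32 other chaperones, folding enzymes and glycan sensors only Dnajc1 passed, with a median of 0.01. Txndc5, a disulfide isomerase, differed by 0.35 (SE 0.09, adjusted p = 0.126), Ganab, the catalytic subunit of glucosidase II, by -0.40 (SE 0.09, adjusted p = 0.0879) and the sulfhydryl oxidase Qsox1 by -0.42 (SE 0.14, adjusted p = 0.240).

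Of 27 further genes of the translocon, signal peptidase and oligosaccharyltransferase 0 passed (limma), with a median of 0.06. At an unadjusted p under 0.05 there were 5 of the 27, all higher in KO. Of all genes 6.24% were higher at that p, and of those above the median level 10.7%. The genes of this list with the lowest p were the signal recognition particle genes Srp72 (0.33, SE 0.09, adjusted p = 0.146) and Srp14 (0.25, SE 0.09), the receptor gene Srpr (0.29, SE 0.09) and Ostc (0.33, SE 0.10). Of 23 genes of ER to Golgi transport Sec23a passed, with a median of 0.08. Sec23b differed by 0.27 (SE 0.08, adjusted p = 0.186), Sec13 by 0.27 (SE 0.09) and Ergic1 by -0.33 (SE 0.11). Of 7 calcium genes Stim2 passed, while the values for Stim1, a calcium sensor related to Stim2, were -0.46 (SE 0.10, adjusted p = 0.0747), for the pump gene Atp2a3 -0.25 (SE 0.10) and for the calcium channel gene Itpr2 -0.23.

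The 15 genes of the ATF4 and CHOP branch had no common direction. Asns rose and Ddit4 fell, and the median over the list was 0.02. Atf4 differed by 0.13 (SE 0.09, adjusted p = 0.629). Ddit3, which encodes CHOP, read 7.07, 7.17 and 6.80 in WT and 6.84, 6.41 and 6.64 in KO (difference -0.38, SE 0.14, adjusted p = 0.271). Nupr1, a stress-induced transcription cofactor, differed by 0.39 (SE 0.12, adjusted p = 0.213) and Cebpb, a transcription factor, by 0.51 (SE 0.18, adjusted p = 0.253), the latter with KO replicate 1 far above the rest at 6.91. Among 13 further sensors and transducers 0 passed (limma). At an unadjusted p under 0.05 there were 3 of the 13, against 12.7% of all genes and 21.7% of those above the median level. Traf2, an adaptor of IRE1 and of TNF receptors, differed by 0.50 (SE 0.13, adjusted p = 0.118), Eif2ak1 by -0.26 (SE 0.09), Creb3l1, an ER-tethered transcription factor, by -0.38 (SE 0.14) and Creb3 by 0.20 (SE 0.10).

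**Figure D4:**
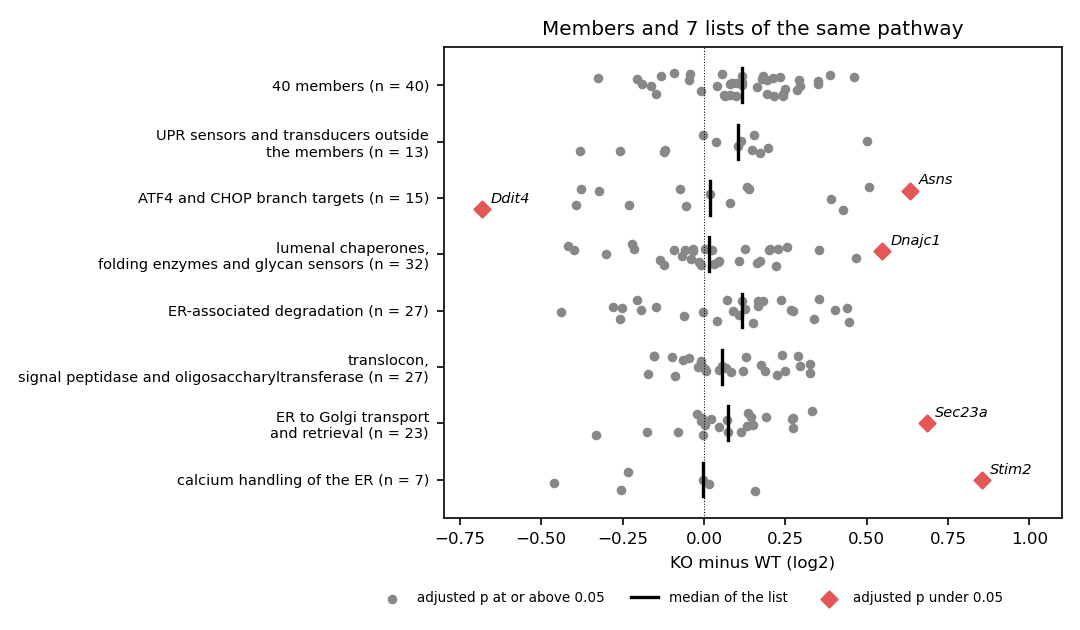
KO minus WT difference (log2, x axis) of the 40 members and of the measured genes in 7 lists of the same pathway; each point is 1 gene, black bars are medians, and red diamonds are genes with an adjusted p under 0.05 (limma). Of the genes shown, 5 pass: Stim2, Sec23a, Asns and Dnajc1 higher and Ddit4 lower in KO.

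Markers of other cell types were read on the same arrays. In these bulk samples fewer cells of a type and less RNA per cell cannot be told apart. The 9 measured markers of plasma and B cells, which are rich in ER, had means between 2.62 and 3.77. Their summed log2 levels ran from 26.01 to 27.47 in WT and from 26.59 to 27.55 in KO. Of these markers 0 passed (limma). At an unadjusted p under 0.05 there were 0, against 12.7% of all genes and 21.7% of those above the median level. All 9 had means below the median gene (3.92), and the share among such dim genes was not counted. Of the 9 macrophage and monocyte markers, Cx3cr1 and Cd68 were well above the median gene on every array. Cx3cr1, a chemokine receptor, read 8.68, 9.04 and 8.68 in WT and 7.67, 8.11 and 7.76 in KO and was the 1 marker of the list that passed (-0.95, SE 0.14, adjusted p = 0.0280). Cd68, a lysosomal protein, read 8.37, 8.52 and 8.49 in WT and 7.60, 8.28 and 8.43 in KO (-0.35, SE 0.19, adjusted p = 0.515). The receptor genes Csf1r and Adgre1 lay between 2.97 and 3.91 on all arrays. Cd14, Lyz2, Mrc1, Fcgr1 and Ccr2 had means between 2.59 and 3.41, also below the median gene. The list summed to 38.94 to 40.99 in WT and to 36.24 to 38.58 in KO, with no overlap. Cx3cr1, with the largest difference of the list, is part of these sums, and sums without it were not taken. By the median over the list of the level minus the WT mean the groups overlapped. WT replicate 3 was at -0.034 and KO replicate 3 at -0.03. Of the 4 basophil markers, Cd200r3 ranged from 8.32 to 8.57 and Mcpt8 from 5.23 to 7.56 in WT and from 5.64 to 7.58 in KO, and the list summed to 20.77 to 24.52 in WT and 21.25 to 23.64 in KO. The part of these cells in the values of the 40 genes was not tested.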

How the data were processed

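RNA was labelled with biotin and hybridised to 1 array per culture. Per the submitters' processing notes, RMA gave the log2 intensities that the authors deposited. Its version is not given in the sources used here. No further normalization was applied. The column medians lay between 3.67 and 3.74. Of 35557 probe sets, the platform annotation named 1 gene for 21789, several genes for 1621 and held no entry for 12147. Single-symbol probe sets were reduced to the one with the highest mean per gene, which left 19938 genes, named with RefSeq's gene table (GRCm38.p6) where a listed symbol was older.

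The test was limma 3.58.1 under R 4.3.3, with lmFit, eBayes and genotype as the only term, and p-values were Benjamini-Hochberg adjusted over all genes. Differences are KO minus WT on the log2 scale, with the moderated SE, and "passed", "rose" and "fell" mean an adjusted p under 0.05. The number of arrays, 3 per group, limits the precision. The members, roles and lists were chosen with earlier results of these data known. Neither their direction nor their shares beside those of all genes are therefore independent evidence. Of the 7 pathway lists, genes that passed and the 4 with the lowest p were named; Atf4, Ddit3 and the markers were named besides, and the genes singled out by array were chosen after their values were seen. The alternatives were leaving out each array, median centring, a replicate block, a second quantile normalization, array weights, dropping dim genes, eBayes with trend and robust set, averaged probe sets and a test of every probe set. On simulated data for KO against WT (19938 genes, 10 sets of 200 changed genes), 99% of changes of 1 log2 unit were recovered. Of the calls, 7.17% were false. The largest difference of any member was 0.461 log2 units in size. Changes below 1 log2 unit were not simulated, so the recovery of differences as small as those of the members was not tested. No protein sequences were used here. Promoters and the miRNA come from RefSeq (GRCm38.p6). Plots were drawn with matplotlib 3.10.9.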

Additional observations from a re-analysis of the deposited data

How the results depend on the processing

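None of the 40 genes passed in any of the 14 alternative fits (limma), and the lowest adjusted p among them was 0.0545, for Sel1l with trend and robust priors. Over all genes, from 4 to 230 passed in these fits, against 164 in the main fit. The count of members was 0 too for the 37 genes matched by the symbol given, an alternative chosen after seeing the data. The median difference over the members kept its sign, from 0.09 to 0.16 without 1 array and from 0.11 to 0.13 otherwise. Of 558 single values 12 changed sign, all in 5 genes with differences near 0, and the cause was not tested. Without 1 array, Hsp90b1 ranged from -0.024 to 0.155 (-0.008 without WT replicate 2), Edem1 from -0.064 to 0.125 and Eif2ak3 from -0.019 to 0.122. Ssr1 ranged from -0.11 to 0.051 without 1 array (0.033 without WT replicate 3) and was 0.006 with array weights. Ern1 ranged from -0.084 to 0.046 (0.008 without WT replicate 3, 0.036 without KO replicate 2), and was 0.004 with median centring and 0.017 with repeated quantile normalization. The count of 5 pathway genes that passed was 0 when every probe set was tested, ranged from 0 to 5 without 1 array, and was 5 under the other alternatives. The test of every probe set was both fitted and adjusted over 35557 probe sets, so the unadjusted p-values moved too. In it 4 of all 19938 genes passed, against 164 in the main fit. The counts without KO replicate 1 of genes above 0 or with separate groups were added after seeing the data. So were the counts of members at an unadjusted p under 0.05, which ranged from 7 to 15 without 1 array. The share of all genes at that p was not counted in those fits. With the replicate number as a block the counts of members and pathway genes that passed were 0 and 5. Arrays with the same number correlated at -0.01, -0.06 and 0.24 in their deviations from the group means, and 2 of 6 arrays correlated best with their own number, so the numbers were not taken to pair the cultures. All arrays were normalized together and no batch was given.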
